A study of Homo sapiens with 6 samples.

Results

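A set of 10 genes less often used as readouts of the transcriptional coactivator YAP1 was followed in C4-2 cells: CRIM1, NT5E, F3, FJX1, MYOF, ASAP1, DOCK5, NUAK2, GADD45A and RBMS3. They were chosen by name, as 10 of the 22 genes of a published YAP/TEAD target signature, and taken from the deposited table by gene symbol. The choice was made with earlier results of these data known. Of the 10 genes, 9 were found among the 26819 genes of the table; RBMS3 was not analysed here. C4-2 is an established human line, a castration-resistant descendant of the LNCaP prostate cancer cells. All cells had the genotype Tet-O-YAP5SA, which places under doxycycline control a YAP1 that the LATS kinases cannot inactivate because alanine stands in for their target serines. Of the libraries, 3 came from cells given doxycycline for 24 hours (Dox; 0.2 mg/ml as the labels state the dose) and 3 from cells of the same genotype without it (Ctrl). Levels are in TPM, that is, length-corrected reads as a share of each library. The labels do not say whether replicates were separate cultures, so the error behind each p-value is that among these libraries and may be technical only. There are no doxycycline-treated cells without the transgene, so effects of the drug and of YAP5SA cannot be told apart.

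YAP1 is held in the cytoplasm when the Hippo kinases phosphorylate it. Unphosphorylated YAP1 enters the nucleus and binds DNA through the TEAD factors, which recognise the letters CATTCC, or GGAATG when read from the opposite strand. Many of these sites lie in enhancers that also hold AP-1 sites, with the letters TGANTCA. Its targets encode secreted and surface proteins, regulators of the actin cytoskeleton, and components that feed back on the Hippo pathway itself.

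In brief, CRIM1, NT5E, MYOF, DOCK5 and ASAP1 rose with doxycycline, between 1.65-fold and 8.78-fold as ratios of mean TPM. NUAK2 and GADD45A, which encode stress-related proteins, fell, by less than any of those rises. FJX1 and F3 stayed near or under 1 TPM in both groups and had more reads in each Dox library than in any Ctrl library. At the threshold used here (limma adjusted p under 0.05 over all tested genes), 53.7% of the 14833 tested genes were called; 35.9% of the tested genes were called higher and 17.8% lower. All 7 members that passed the filter on low values (at least 1 TPM in at least 3 libraries) were called, 5 higher and 2 lower. NT5E and MYOF passed only through the Dox libraries and so had to differ; among the other 5 members, 3 were higher and 2 lower, with a median log2 fold change of 0.68 (the value of ASAP1), beside 0.10 for all tested genes. In TPM, the groups did not overlap for those 5 members, as for 61.9% of tested genes. Nor did they for NT5E and MYOF, where the filter fixed this, or for FJX1 and F3, which are outside the tested genes.

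Reads recovered from the TPM values of the tested genes came to between 24914226 and 29207519 in Dox libraries and between 27546897 and 28759617 in Ctrl libraries. YAP1 was at 263, 277 and 268 TPM in Dox libraries and at 52.7, 57.9 and 59.9 TPM in Ctrl libraries, a value for the whole gene that does not separate transgene from endogenous transcripts. All 8 luminal prostate markers examined were expressed, with 2 called higher and 5 lower in Dox, for example KLK3 (prostate-specific antigen) at a mean of 1795 TPM in Dox and 3297 TPM in Ctrl, and FOLH1 (prostate-specific membrane antigen) at 1121 and 1083 TPM. Of 12 stromal, endothelial and immune markers, 9 were measured, and 8 of these were under 1 TPM in every library. The exception was VWF, at 3.74 ± 0.226 TPM in Dox and 1.25 ± 0.116 TPM in Ctrl (SD, n = 3 each). Under 1 TPM, CDH5, also endothelial, was higher in Dox (0.381, 0.567 and 0.458 TPM) than in Ctrl (0, 0 and 0.0197 TPM). PDGFRB went the other way, at 0.0731 ± 0.0203 TPM in Dox and 0.185 ± 0.0462 TPM in Ctrl. The summed level of the 9 markers was 4.37 to 4.90 TPM in Dox and 1.79 to 2.05 TPM in Ctrl; the part of such transcripts in the results below was not tested.

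Promoter windows, from 250 bases before to 50 bases after the transcript start, were available in RefSeq (GRCh38.p14) for 6 of the 10 genes: NT5E, MYOF, NUAK2, FJX1, F3 and RBMS3. Windows for CRIM1, ASAP1, DOCK5 and GADD45A were not used here. The TEAD letters CATTCC or GGAATG occur in 14.0% of all 35116 windows and at least 2 times in 1.37% of them, counting both strands. The AP-1 letters TGANTCA, which read the same on both strands, occur in 7.71% of windows and at least 2 times in 0.515%. The windows of NUAK2, F3 and NT5E are printed below because they differ in what they hold: the first has 2 TEAD matches, the second has 2 AP-1 matches and the third has neither. Matches are in capitals, and each sequence is given 5′ to 3′ on the strand of the gene.
NUAK2, chr1:205321696-205321995, minus strand: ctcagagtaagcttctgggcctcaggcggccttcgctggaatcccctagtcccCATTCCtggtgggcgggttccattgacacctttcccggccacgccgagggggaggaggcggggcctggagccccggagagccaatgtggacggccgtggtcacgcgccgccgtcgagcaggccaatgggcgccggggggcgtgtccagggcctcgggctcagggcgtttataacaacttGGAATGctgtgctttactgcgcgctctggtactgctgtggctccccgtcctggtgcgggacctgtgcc
F3, chr1:94541710-94542009, minus strand: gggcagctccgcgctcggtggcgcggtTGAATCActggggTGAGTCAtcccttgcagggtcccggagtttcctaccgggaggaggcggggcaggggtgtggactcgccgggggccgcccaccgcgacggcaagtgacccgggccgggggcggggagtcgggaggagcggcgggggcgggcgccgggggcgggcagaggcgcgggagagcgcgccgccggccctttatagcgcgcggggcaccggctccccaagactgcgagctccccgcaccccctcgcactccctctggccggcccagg
NT5E, chr6:85449833-85450132, plus strand: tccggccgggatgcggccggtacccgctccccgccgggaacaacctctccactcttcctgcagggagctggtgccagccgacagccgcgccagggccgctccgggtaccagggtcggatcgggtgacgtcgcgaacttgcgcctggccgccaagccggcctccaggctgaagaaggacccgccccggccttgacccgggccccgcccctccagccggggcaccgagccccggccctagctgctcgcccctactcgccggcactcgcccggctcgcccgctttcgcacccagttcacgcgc
The TEAD matches of NUAK2 begin 197 and 18 bases before the start, and the AP-1 matches of F3 begin 223 and 210 bases before it. The windows of MYOF, FJX1 and RBMS3 held neither set of letters. Of the other 12 genes of the signature, 10 had a window, and 8 of these held a TEAD match, among them CTGF (CCN2) with 3 and ANKRD1 with 2; AMOTL2 and AXL have more than 1 window and were counted if any window matched. A match is a description of the sequence only, and enhancers were not examined.

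CRIM1 showed the largest log2 fold change of the 7 tested members. It encodes a transmembrane protein with cysteine-rich repeats that binds bone morphogenetic proteins and related growth factors. CRIM1 (ENSG00000150938.5) had 29.4, 32.4 and 30.6 TPM in Dox libraries, against 3.13, 3.95 and 3.45 TPM in Ctrl libraries. The lowest Dox library was far above the highest Ctrl library. The mean was 30.8 ± 1.48 TPM in Dox and 3.51 ± 0.412 TPM in Ctrl (SD, n = 3 each), an 8.78-fold higher level, and the log2 fold change on the TPM + 1 scale was 2.82 ± 0.08 (SE; limma adjusted p = 1.6e-07). It stood at the 99.6th percentile of the log2 fold changes of all tested genes. In GENCODE 29, 177 of the 7122 exon bases of CRIM1 overlap an antisense gene, AC007378.1, and whether the authors counted by strand is not stated.

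NT5E encodes CD73, the surface enzyme that converts extracellular AMP to adenosine. NT5E (ENSG00000135318.7) had 2.56, 2.37 and 2.01 TPM in Dox libraries and 0.361, 0.295 and 0.615 TPM in Ctrl libraries, so it was low in both groups without overlap. These values rest on 77, 79 and 71 recovered reads in Dox and 13, 10 and 21 in Ctrl. The ratio of mean TPM was 5.46, whereas the log2 fold change of 1.22 ± 0.14 (limma adjusted p = 0.00021) understates it because 1 TPM is added before the logarithm. On recovered reads, limma voom gave a log2 fold change of 2.42 ± 0.27. NT5E passed the filter only through the Dox libraries, so the filter fixed its lack of overlap and its direction in both fits. With no filter, its limma adjusted p was 0.00087.

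MYOF encodes myoferlin, a calcium-binding membrane protein of the ferlin family that takes part in membrane fusion and repair. MYOF (ENSG00000138119.12) had 1.46, 1.31 and 1.26 TPM in Dox libraries and 0.354, 0.321 and 0.415 TPM in Ctrl libraries. The Dox libraries lay close together, and each was above every Ctrl library. The ratio of mean TPM was 3.69, from 279 recovered reads in all Dox libraries and 80 in all Ctrl libraries. The log2 fold change was 0.78 ± 0.12 on the TPM + 1 scale (limma adjusted p = 0.0011) and 1.82 ± 0.20 with voom on recovered reads. MYOF also passed the filter only through the Dox libraries, so its lack of overlap and its direction were fixed in both fits. With no filter, its limma adjusted p was 0.00086.

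FJX1 and F3 were under the filter and have no value in the main test. FJX1 is the human relative of Drosophila four-jointed, a Golgi kinase that phosphorylates cadherin domains of Fat and Dachsous. FJX1 (ENSG00000179431.5) had 0.796, 1.08 and 0.847 TPM in Dox libraries and 0, 0.133 and 0.219 TPM in Ctrl libraries, from 16, 24 and 20 recovered reads in Dox and 0, 3 and 5 in Ctrl. Pooled over libraries and adjusted for depth, the ratio of reads was 7.91, with an exact 95% interval of 3.77 to 19.1 that covers counting error only. F3 encodes tissue factor, the cell-surface starter of the extrinsic coagulation cascade. F3 (ENSG00000117525.9) had 0.558, 0.588 and 0.554 TPM in Dox libraries and 0.116, 0.330 and 0.0409 TPM in Ctrl libraries, from 12, 14 and 14 reads in Dox and 3, 8 and 1 in Ctrl. Its ratio of reads was 3.51 (exact 95% interval 1.81 to 7.36, counting error only). The Ctrl libraries of F3 varied more among themselves than the Dox libraries, and Ctrl 2 was the nearest to them. When limma was fitted to all 26819 genes with no filter, both were called higher, FJX1 with a log2 fold change of 0.77 ± 0.10 (adjusted p = 0.0024) and F3 with 0.44 ± 0.10 (adjusted p = 0.020). In that fit, 5060 of the 26819 genes were called higher and 2428 lower. F3 did not reach 1 TPM in any library, and FJX1 reached it only in Dox 2.

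**Figure D1:**
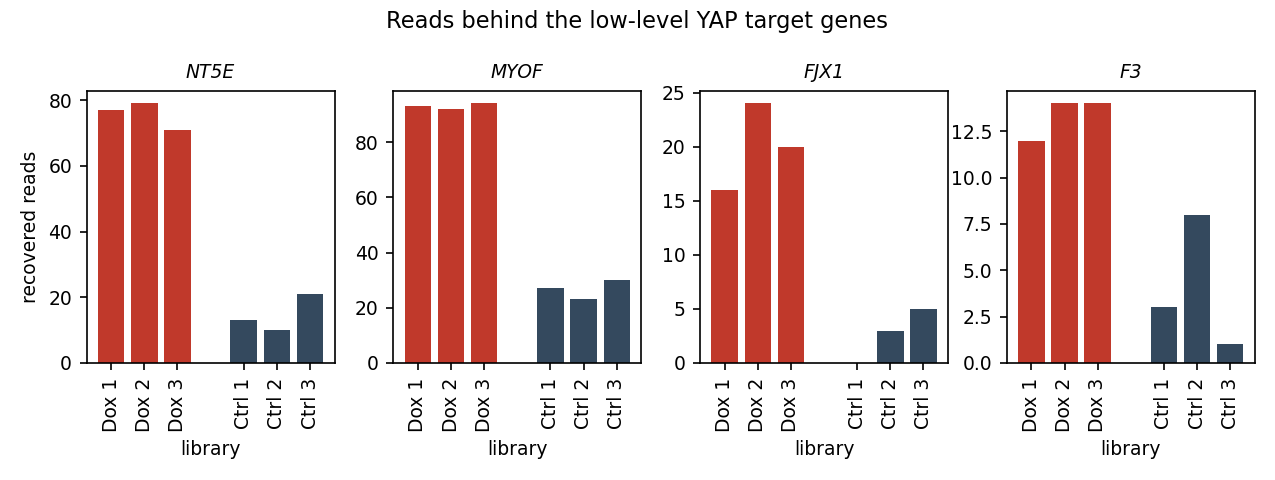
Recovered reads (vertical axis, starting at 0, with its own scale for each gene) of NT5E, MYOF, FJX1 and F3 in each Dox library (red) and Ctrl library (dark blue). F3 had 12 to 14 reads in Dox libraries and 1 to 8 in Ctrl libraries, so its Ctrl level rests on few reads.

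Both members that act on small GTPases rose, and both were expressed without doxycycline. DOCK5 encodes a guanine nucleotide exchange factor that activates RAC, a GTPase that drives actin assembly at the cell edge. DOCK5 (ENSG00000147459.13) had 7.26, 7.78 and 7.44 TPM in Dox libraries and 2.65, 3.46 and 2.59 TPM in Ctrl libraries, with no overlap. Its mean was 7.49 ± 0.260 TPM in Dox and 2.90 ± 0.488 TPM in Ctrl (SD, n = 3 each), 2.58-fold higher, and the log2 fold change was 1.13 ± 0.10 (limma adjusted p = 6.4e-05). ASAP1 encodes a GTPase-activating protein that acts on ARF GTPases and is found at focal adhesions and invadopodia. ASAP1 (ENSG00000153317.10) had 18.9, 19.9 and 18.0 TPM in Dox libraries and 10.6, 11.9 and 11.8 TPM in Ctrl libraries. Every Dox library was higher, but the step was the smallest among the members that rose as a ratio of mean TPM, at 1.65-fold. The log2 fold change of ASAP1 was 0.68 ± 0.06 (limma adjusted p = 9.0e-05).

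NUAK2 and GADD45A fell. NUAK2 encodes an AMPK-related kinase that acts on actomyosin and has been described as a YAP target that in turn restrains LATS. NUAK2 (ENSG00000163545.7) had 9.38, 10.2 and 10.1 TPM in Dox libraries and 12.1, 12.3 and 10.7 TPM in Ctrl libraries. The gap between the highest Dox library and the lowest Ctrl library was narrow. Its mean was 9.88 ± 0.438 TPM in Dox and 11.7 ± 0.864 TPM in Ctrl (SD, n = 3 each), and the log2 fold change was -0.22 ± 0.07 (limma adjusted p = 0.032). The call is lost with no filter (adjusted p = 0.062) and without Dox replicate 1 (0.097), Dox replicate 2 (0.056), Dox replicate 3 (0.056), Ctrl replicate 1 (0.092) or Ctrl replicate 2 (0.087); over all settings its adjusted p ran from 0.0023 to 0.097. GADD45A encodes a small stress sensor induced by DNA damage and p53 that binds MAP kinase kinase kinases and cell cycle regulators. GADD45A (ENSG00000116717.7) had 40.2, 41.7 and 39.7 TPM in Dox libraries and 46.4, 48.5 and 50.2 TPM in Ctrl libraries, and its groups were clearly apart. The log2 fold change of GADD45A was -0.25 ± 0.04 (limma adjusted p = 0.0021), and its 95% interval ran from -0.35 to -0.15. Relative to the median of all tested genes, which was 0.10, the changes were -0.31 for NUAK2 and -0.34 for GADD45A.

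**Figure D2:**
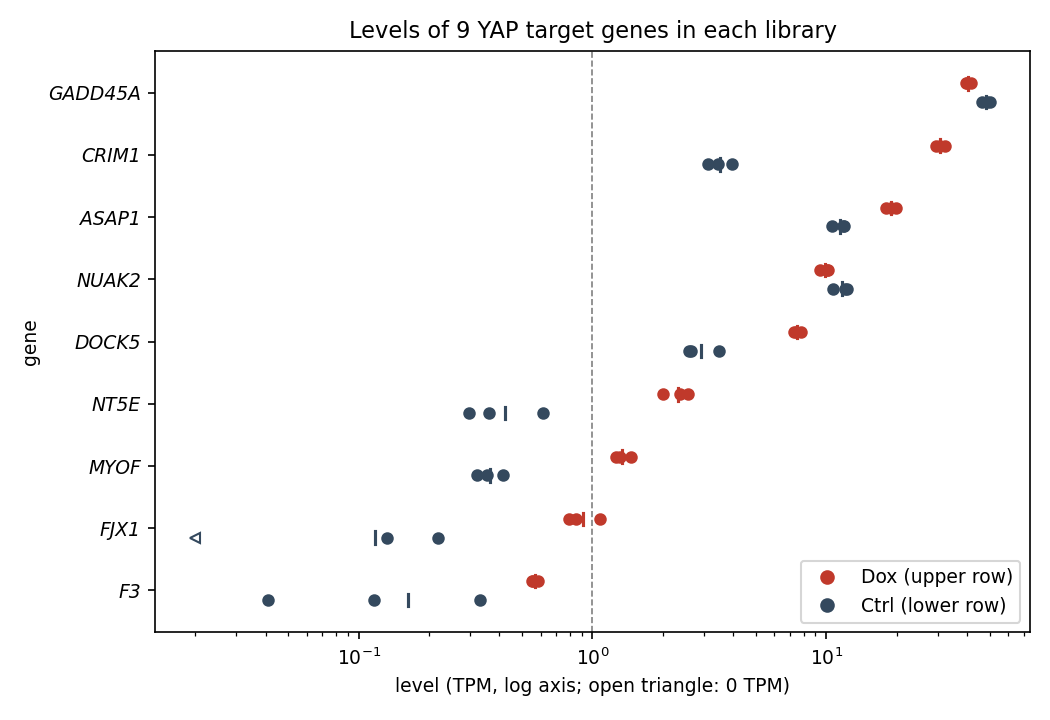
Level in TPM (horizontal axis, logarithmic) of the 9 measured genes in each Dox library (red, upper row of each gene) and Ctrl library (dark blue, lower row), with short vertical bars at the group means and a dashed line at 1 TPM; the open triangle stands for 0 TPM. CRIM1 stood near the top in Dox (30.8 TPM) and among the middle levels in Ctrl (3.51 TPM), while GADD45A and NUAK2 lay slightly lower in Dox.

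Because TPM is per length, the levels of the members can be ordered within a group. In Dox libraries the order by mean TPM was GADD45A, CRIM1, ASAP1, NUAK2, DOCK5, NT5E, MYOF, FJX1 and F3, and no neighbours in it had overlapping ranges over the 3 libraries. In Ctrl libraries the order was GADD45A, NUAK2, ASAP1, CRIM1, DOCK5, NT5E, MYOF, F3 and FJX1. There the ranges overlapped between NUAK2 and ASAP1, CRIM1 and DOCK5, NT5E and MYOF, MYOF and F3, and F3 and FJX1. CRIM1 was at the 81.3rd percentile of all listed genes by mean TPM in Dox and at the 57.3rd in Ctrl. MYOF was at the 47.6th percentile in Dox and at the 37.1st in Ctrl.

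The other 12 genes of the signature were set beside the members. Of these, 9 were tested. CTGF, ANKRD1 and TGFB2 passed the filter only through the Dox libraries, so that their rise was fixed; of the other 6, 5 rose and 1 was not called, beside 35.9% of all tested genes called higher. The tested genes were CTGF, CYR61 (CCN1), ANKRD1, AMOTL2, LATS2, PTPN14, IGFBP3, TGFB2 and ARHGEF17. Log2 fold changes ran from -0.25 to 2.82 among the tested members and from 0.24 to 8.21 among these genes. TGFB2, a growth factor of the TGF-beta family, was at 2.29 ± 0.167 TPM in Dox and 0.120 ± 0.0250 TPM in Ctrl (SD, n = 3 each). ARHGEF17, a guanine nucleotide exchange factor, did not pass the test (log2 fold change 0.24 ± 0.14, 95% interval -0.09 to 0.56, limma adjusted p = 0.19), although voom on recovered reads called it higher (0.31, adjusted p = 0.046; 0.046 to 0.99 over all settings). Of the published targets, AXL, FOXF2 and CCDC80 were under 1 TPM in every library. AXL, a receptor tyrosine kinase often used as a YAP readout, had 0.259, 0.258 and 0.154 TPM in Dox and 0.238, 0.207 and 0.571 TPM in Ctrl, from 28 reads in all Dox and 45 in all Ctrl libraries. FOXF2, a forkhead factor of mesenchyme, had 20 reads in Dox and 24 in Ctrl, and CCDC80, a matrix-associated protein, had 30 and 14. Adjusted for depth, the ratio of reads was 0.656 for AXL (exact 95% interval 0.394 to 1.07, counting error only). It was 0.878 (0.460 to 1.66) for FOXF2 and 2.26 (1.16 to 4.61) for CCDC80. The groups overlapped for each of these genes, and with no filter their limma adjusted p-values were 0.50 for AXL, 0.75 for FOXF2 and 0.27 for CCDC80. At this depth, 3 reads on AXL correspond to 0.0649 to 0.0778 TPM depending on the library, and each of its libraries was above that; CCDC80 had only 2 reads in Ctrl 3.

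**Figure D3:**
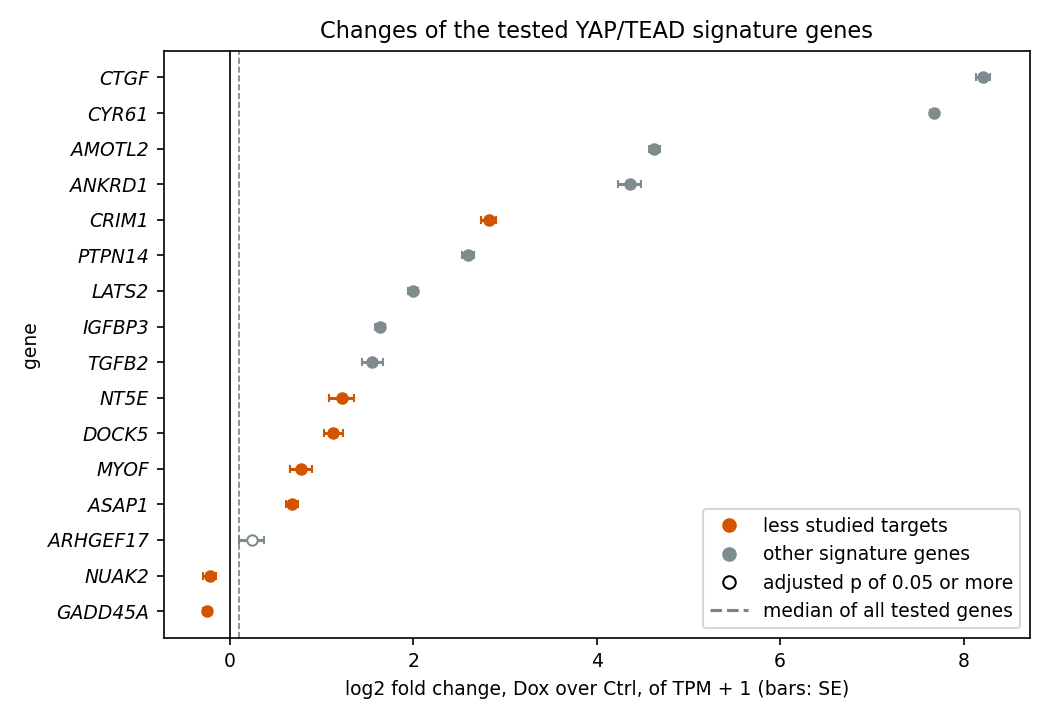
Log2 fold change of TPM + 1, Dox over Ctrl (horizontal axis; bars are SE), of the tested genes of the signature, with the less studied targets in orange and the other genes in grey; the dashed line marks the median of all tested genes, 0.10. CRIM1 (2.82) lay among the upper genes, GADD45A (-0.25) and NUAK2 (-0.22) below 0, and the value of ANKRD1, which had 0 TPM in all Ctrl libraries, depends on the added 1 TPM.

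Relatives of the members in the same gene families were examined as a list of 30 genes. Of these, 20 were tested, 11 rose and 2 fell, beside 35.9% of all tested genes called higher and 17.8% lower. Their median log2 fold change was 0.27 beside 0.10 for all tested genes. After removal of the length trend 7 rose and 3 fell, beside 3381 of all 14833 tested genes called higher and 4720 lower. RBMS2 and GADD45G are named by a rule of size, and the others as relatives of the members, chosen after their values were seen. RBMS2, an RNA-binding relative of RBMS3, had 24.3, 25.2 and 24.7 TPM in Dox libraries and 5.44, 6.22 and 5.80 TPM in Ctrl libraries, a log2 fold change of 1.92 ± 0.06 (limma adjusted p = 2.9e-07). RBMS1, another relative, was under the filter at 0.625, 0.719 and 0.755 TPM in Dox and 0.104, 0.172 and 0.0901 TPM in Ctrl. For both RBMS genes every Dox library was above every Ctrl library, while the groups did not overlap for 61.9% of tested genes. RBMS1 is outside the tested genes and rested on 203 reads in all Dox libraries and 37 in all Ctrl libraries. Nothing about RBMS3 is read from these relatives.

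The GADD45 genes did not move together. GADD45B rose to 637 ± 34.4 TPM in Dox, against 365 ± 6.91 TPM in Ctrl (SD, n = 3 each; log2 fold change 0.80 ± 0.04, limma adjusted p = 3.5e-06). GADD45G had 26.8, 22.4 and 30.4 TPM in Dox libraries and 59.5, 60.9 and 58.0 TPM in Ctrl libraries, a log2 fold change of -1.15 ± 0.10 (limma adjusted p = 4.9e-05). The fall of GADD45A lay between these values, nearer to 0, and the 3 directions held under each scaling tried. In the ASAP family, ASAP2 rose 2.10-fold to 19.6 ± 1.58 TPM in Dox, against 9.34 ± 1.03 TPM in Ctrl. ASAP3 was at 5.96 ± 0.0564 TPM in Dox and 5.87 ± 0.311 TPM in Ctrl (log2 fold change 0.02, 95% interval -0.14 to 0.18). NUAK1 rose to 7.21 ± 0.285 TPM in Dox, against 5.61 ± 0.626 TPM in Ctrl, opposite in sign to NUAK2. SIK1, another kinase relative of NUAK2, fell like NUAK2, to 6.75 ± 0.146 TPM in Dox, against 9.19 ± 0.191 TPM in Ctrl. Its log2 fold change was -0.39 ± 0.06 (limma adjusted p = 0.00089). Of the other kinase relatives, SIK2, BRSK1 and MELK were called higher in the reported fit. SIK3, MARK1, MARK2, MARK3 and MARK4 were not called, and BRSK2 was under the filter. The call of NUAK1 (limma adjusted p = 0.017) is lost after quantile normalization (0.13), with the length trend removed (0.19) and without Dox replicate 2 (0.057), with a range of 0.0014 to 0.19 over all settings. Among the DOCK relatives, DOCK8 rose 2.45-fold to 2.69 ± 0.0537 TPM in Dox, and DOCK1, DOCK6 and DOCK9 rose between 1.28-fold and 1.32-fold as ratios of mean TPM. The calls of DOCK6 and DOCK9 are lost with the length trend removed, and that of DOCK9 also after quantile normalization. Differences between relatives were not tested themselves.

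**Figure D4:**
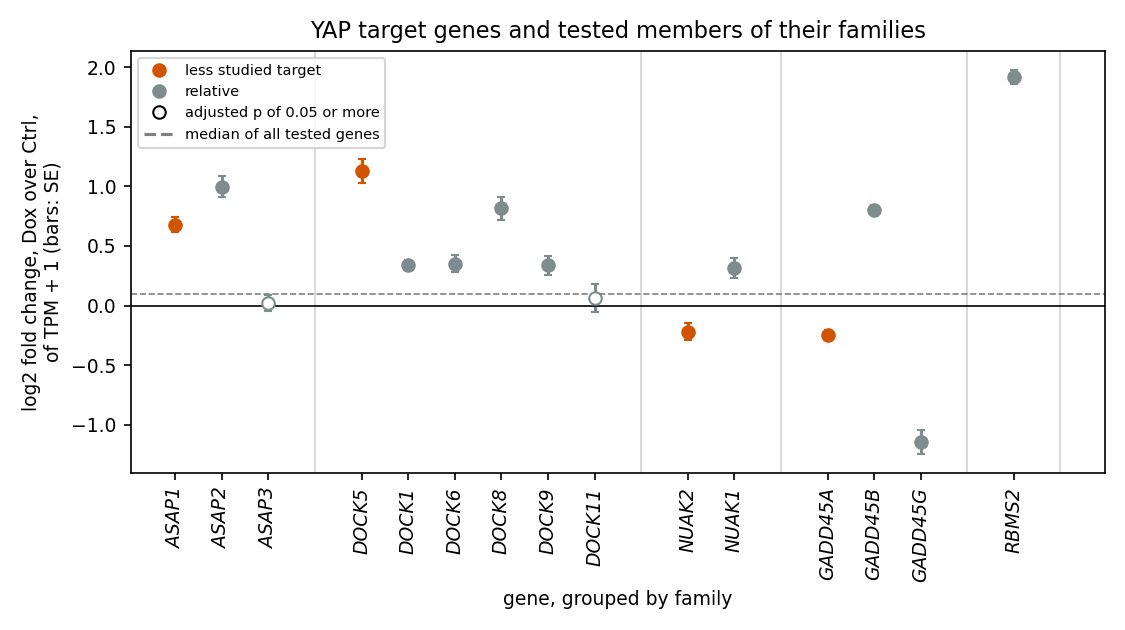
Log2 fold change of TPM + 1, Dox over Ctrl (vertical axis; bars are SE), of ASAP1, DOCK5, NUAK2 and GADD45A (orange) and of relatives in the ASAP, DOCK, NUAK, GADD45 and RBMS families (grey), with the median of all tested genes dashed; open symbols did not pass the test. GADD45B (0.80) and GADD45G (-1.15) lie on opposite sides of GADD45A (-0.25), and RBMS2 stands highest at 1.92. The SIK, MARK, BRSK and MELK relatives of NUAK2 are not drawn.

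Genes of the pathways in which NT5E, F3, CRIM1 and FJX1 act were counted in lists of their own, with the named genes again chosen after their values were seen. Of 9 tested genes of extracellular adenosine handling, 5 rose and 3 fell. After median-ratio rescaling only 1 rose and 3 fell, beside 3964 of all 14833 tested genes called higher and 3948 lower. As 53.7% of all tested genes were called, 35.9% higher and 17.8% lower, nothing particular to these short lists is read from their counts. SLC29A1, the main equilibrative nucleoside transporter, fell to 17.1 ± 1.13 TPM in Dox, against 28.7 ± 0.666 TPM in Ctrl (limma adjusted p = 3.6e-05), and ENTPD2, which hydrolyses extracellular ATP, fell to 43.7 ± 4.03 TPM, against 58.0 ± 0.718 TPM. ADA was also called lower. The genes called higher were ENTPD3 (2.21 ± 0.334 TPM in Dox and 1.26 ± 0.216 TPM in Ctrl), ADORA2A, ENPP1, ADK and SLC29A2. ENTPD3 kept its call under each alternative that tested it, and the others called higher lost theirs in some. The receptor gene ADORA2B was at 14.2 ± 1.33 TPM in Dox and 14.5 ± 1.22 TPM in Ctrl (SD, n = 3 each). Of 4 tested genes of the tissue factor pathway, 2 rose and 2 fell, against the same 53.7% of all tested genes called. The protease-activated receptor genes F2R (9.96 ± 0.648 TPM in Dox and 7.10 ± 0.545 TPM in Ctrl) and F2RL1 (67.7 ± 0.178 and 58.2 ± 1.58 TPM) rose. TFPI, the inhibitor of tissue factor, fell to 2.53 ± 0.228 TPM in Dox, against 3.95 ± 0.172 TPM in Ctrl, and PROCR, the endothelial protein C receptor, to 15.3 ± 0.753 TPM, against 25.6 ± 1.80 TPM. Of 6 partner genes of CRIM1 and FJX1, 2 were tested. BMP7 fell to 1.28 ± 0.0372 TPM in Dox, against 3.24 ± 0.351 TPM in Ctrl (log2 fold change -0.90 ± 0.10, limma adjusted p = 0.00023), and BMP4 did not pass (0.24 ± 0.11, adjusted p = 0.089). FAT4, the human counterpart of Drosophila Fat, was under the filter, with 0.707, 1.03 and 0.664 TPM in Dox libraries and 0.122, 0.123 and 0.143 TPM in Ctrl libraries.

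The members' size of change depended on the added constant where levels were low. With a pseudocount of 0.1 in place of 1, log2 fold changes were 3.10 for CRIM1, 2.25 for NT5E, 1.64 for MYOF, 1.35 for DOCK5 and 0.72 for ASAP1, and voom on recovered reads gave 3.10, 2.42, 1.82, 1.34 and 0.68 for the same genes. NT5E and MYOF therefore moved more than 1.5 times between units, while ASAP1 hardly moved. Quantile normalization shifted the median of all genes by -0.13, and the length correction by -0.14; NUAK2 was then at -0.40 and -0.33 and GADD45A at -0.38 and -0.33.

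**Figure D5:**
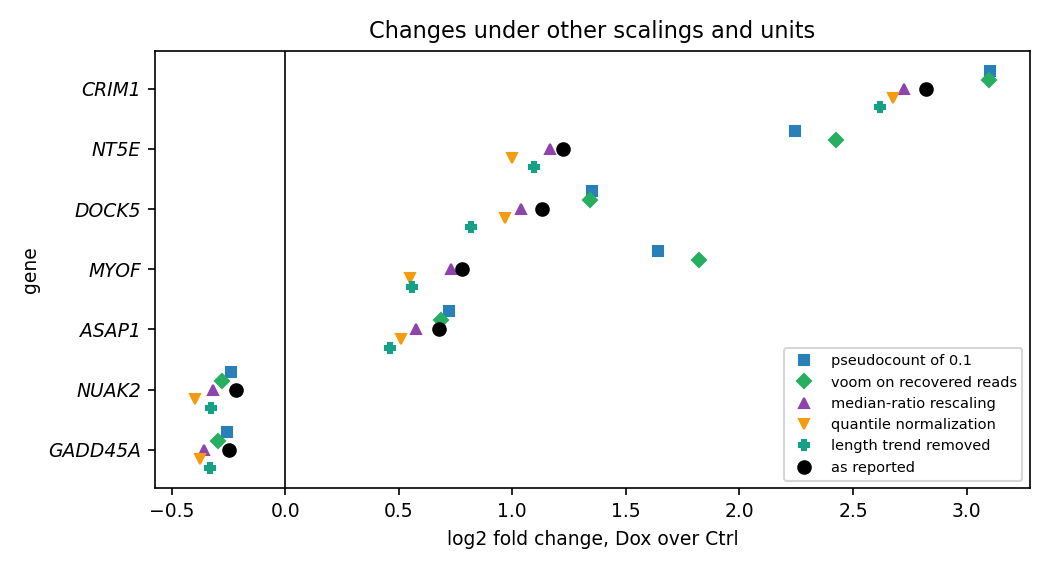
Log2 fold change, Dox over Ctrl (horizontal axis), of the 7 tested members as reported (black) and under 5 other scalings or units (coloured symbols). The sign of each gene was the same throughout, and NT5E and MYOF spread most, up to 2.42 and 1.82 with voom on recovered reads. NT5E and MYOF passed the filter only through the Dox libraries. Every setting drawn kept that filter, so their sign was largely set.

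The profiles most like those of the tested members with the largest rise (CRIM1) and the largest fall in the reported fit (GADD45A) were found by Euclidean distance over the 6 libraries, between values of log2(TPM + 1) minus the Ctrl mean, among 11846 tested protein-coding genes. Nearest to CRIM1 were WNT7B, a Wnt ligand (distance 0.09), APBB2, an adaptor of the amyloid precursor protein (0.12), and CYTH3, an exchange factor for ARF GTPases (0.19). WNT7B was at 128 ± 5.14 TPM in Dox and 16.9 ± 0.961 TPM in Ctrl, so it shared the change and not the level of CRIM1. NUAK2 fell further than GADD45A after quantile normalization (log2 fold changes of -0.40 and -0.38) and without Ctrl replicate 3 (-0.28 and -0.22). Nearest to GADD45A were CCNI, MYSM1 and SH3BP1, at distances of 0.03 to 0.04.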

How the data were processed

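RNA of 3 Dox and 3 Ctrl libraries (TruSeq stranded mRNA, per the labels) was sequenced. Per the submitters' processing notes, FastQC 0.11.2, STAR 2.5.3a, featureCounts, edgeR and hg19 are named with no roles; annotation release and strand setting: not given in the sources used here. The deposited table holds TPM values made by the authors, 1 per gene and library. Where a symbol repeats, the first entry was taken.

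Genes that reached 1 TPM in 3 or more libraries were fitted with limma 3.58.1 in R 4.3.3 (lmFit, then eBayes with trend) to log2(TPM + 1); tests were two-sided, Benjamini-Hochberg adjusted over 14833 genes, threshold 0.05, without a replicate block. Folds without "log2" are ratios of mean TPM. Whole reads were recovered from the TPM values as reads = TPM × length / a constant of the library, with GENCODE 29 exon lengths (9115 genes) or the smallest length giving whole reads (5718 genes), 100% of tested genes within 0.01 reads in all libraries; a divisor common to all counts of a gene would make them too low. Fit and recovery were tested on simulated data. The members and lists were chosen with earlier results of these data known. Named genes are all members, YAP1, the other signature genes, and called list genes with a log2 fold change beyond 1 either way; others are marked as chosen later. A relative left out of the list is not reported here. Alternatives were pseudocount 0.1, no filter, a mean of at least 5 TPM, median-ratio and quantile scaling, no variance trend, a replicate block, voom on recovered reads, a length correction (loess, span 0.3) and leaving out each library.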

Additional observations from a re-analysis of the deposited data

How the results depend on the processing

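Log2 fold changes of CRIM1 (2.62 to 3.10), ASAP1 (0.46 to 0.72), DOCK5 (0.82 to 1.35), NT5E (at most 2.42), MYOF (0.55 to 1.82) and GADD45A (-0.38 to -0.22) kept their sign and their call under each alternative that tested them; NUAK2 (-0.40 to -0.18) kept its sign and lost its call in 6. NT5E and MYOF passed the filter only through the Dox libraries, so their direction was largely set in alternatives that kept it, including each omission of a library. The members called higher were 5, and 3 with a mean of at least 5 TPM, where NT5E and MYOF are not tested. With no filter 7 were higher and 1 lower, beside 5060 of all 26819 genes called higher and 2428 lower. Leaving out a library gave 5 higher members each time and 1 to 2 lower. All genes called higher and lower were 3536 and 4348 after quantile normalization and 3381 and 4720 with the length trend removed (4445 to 5278 higher and 2204 to 2417 lower on leaving out a library); the cause was not tested. Relatives called higher were 7 with the length trend removed (10 to 12 on leaving out a library). Adenosine genes called higher were 2 with no filter, 3 with a mean of at least 5 TPM, 1 after median-ratio rescaling, quantile normalization or the length correction and 3 with voom (3 to 4 on leaving out a library). The tissue factor genes called lower were 1 and the partner genes called lower 0 with a mean of at least 5 TPM, where fewer genes are tested (the partner genes had 1 called on leaving out any library); FAT4 (no filter) or BMP4 (no variance trend) made 1 partner gene higher. The sign turned for ADK after median-ratio rescaling (-0.00255, adjusted p = 0.96) and, among genes not called, for ARHGEF17 with the length trend removed (-0.0016) and for ASAP3 in 5 alternatives (-0.15 to -0.016).

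The labels link same-numbered libraries by number only. Their deviations correlated at 0.06, 0.17 and 0.04 over 10780 genes, and those of differently numbered libraries at -0.10 to 0.05. Dox 3 was no closer to Ctrl 3 than to Ctrl 1. Whether the libraries were paired was not tested. A replicate block called 5223 genes higher and 2618 lower, 3 adenosine genes higher and the same number of members. FJX1, F3, AXL, FOXF2 and CCDC80 are limited by depth, with at most 60 reads per group.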
